A study of Mus musculus with 12 samples.

Results

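The genes described are 10 transcriptional outputs and feedback inhibitors of the RAS, RAF, MEK and ERK cascade, namely Etv4, Etv5, Dusp4, Dusp5, Dusp6, Spry1, Spry2, Spry4, Spred1 and Spred2. They were taken by symbol from a table of 55137 gene identifiers, and all 10 were among the 15267 genes with enough counts to be tested. RNA of CMT-93, an epithelial cell line of the mouse rectum, was sequenced in 12 libraries. One group of 3 libraries received PTSO, an organosulfur compound of garlic, at 20 µM for 30 minutes followed by antigens of Trichuris muris, the mouse whipworm, at 100 µg/mL, and is called PTSO + T. muris. Further groups of 3 libraries each received PTSO alone, T. muris antigens alone, or neither (Control), with vehicle named in the labels in place of PTSO, and all cells were harvested after 6 hours. LPS appears in the series title and T. muris antigens in the sample labels, which were used to form the groups. Nothing in the labels tells whether libraries of 1 group were grown as separate cultures, so the p-values measure only the spread between these samples, which may be technical.

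ERK, the last kinase of the cascade that growth factor receptors start through RAS, phosphorylates transcription factors and so raises a set of genes that in turn restrain it. Among the products of these genes, the dual-specificity phosphatases DUSP4, DUSP5 and DUSP6 remove phosphate from ERK itself, Sprouty proteins act upstream of RAF, and SPRED proteins bring neurofibromin to RAS. ETV4 and ETV5 are ETS family transcription factors of the PEA3 group, and together these transcripts are widely read as a measure of ERK pathway output in epithelial cells.

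Each library held between 16.7 M and 34.5 M counts, the range being 19.6 to 26.1 M in PTSO + T. muris, 23.0 to 30.3 M in PTSO, 16.7 to 34.5 M in T. muris and 24.6 to 25.9 M in Control, and the smallest library gives the least precise values. Levels are given as CPM, the count relative to the library total after TMM scaling. All 6 epithelial markers examined were present, with a summed level between 9093 and 9775 CPM in every library, while markers of fibroblasts summed to 2.29 to 3.58 CPM in PTSO + T. muris, 3.10 to 4.43 CPM in PTSO, 4.09 to 4.53 CPM in T. muris and 3.44 to 4.67 CPM in Control. The 3 endothelial markers were detected in every group and summed to 0.728 to 1.01 CPM in PTSO + T. muris, 0.435 to 0.693 CPM in PTSO, 0.155 to 0.539 CPM in T. muris and 0.163 to 0.309 CPM in Control. Of the 4 fibroblast markers, Col3a1 was at 0 in every group. The part of these other cell types' markers in the results was not tested. Control libraries 2 and 3 stood apart: on the component with 19.6% of the variance they lay at -35.4 and -41.5, against -3.58 for control library 1. The treated libraries lay at 0.929 to 23.0. Which of the Control libraries is typical of untreated cells cannot be told from these data. Control libraries 2 and 3 were below all other libraries for 7 of the 10 genes (Etv4, Etv5, Dusp5, Dusp6, Spry1, Spred1 and Spred2), and for 15.5% of all genes tested. Values without these libraries are given beside the main results against Control. In bulk RNA, fewer cells that make a transcript and less of it per cell cannot be told apart.

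Per exon length, Dusp4 had the highest level of the 10 genes in every group, with 65.7 ± 1.54 RPKM in PTSO + T. muris, 73.6 ± 2.92 RPKM in PTSO, 57.2 ± 1.42 RPKM in T. muris and 67.5 ± 3.30 RPKM in Control (SD, n = 3 each). Spred1, Spred2 and Dusp5 followed, with group means of 12.8 to 20.2 RPKM. In Control their libraries overlapped one another, and Dusp5 also overlapped Spry2. Spry2, Etv4, Dusp6 and Spry1 came next, at group means of 4.99 to 11.7 RPKM, and Etv5 after them at 1.93 to 3.56 RPKM. Spry4 was the lowest in every group, at 0.0552 to 0.196 RPKM. The treated groups kept Dusp4 at the top and Etv5 and Spry4 at the bottom, with no overlap between these and their neighbours in the order.

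**Figure D1:**
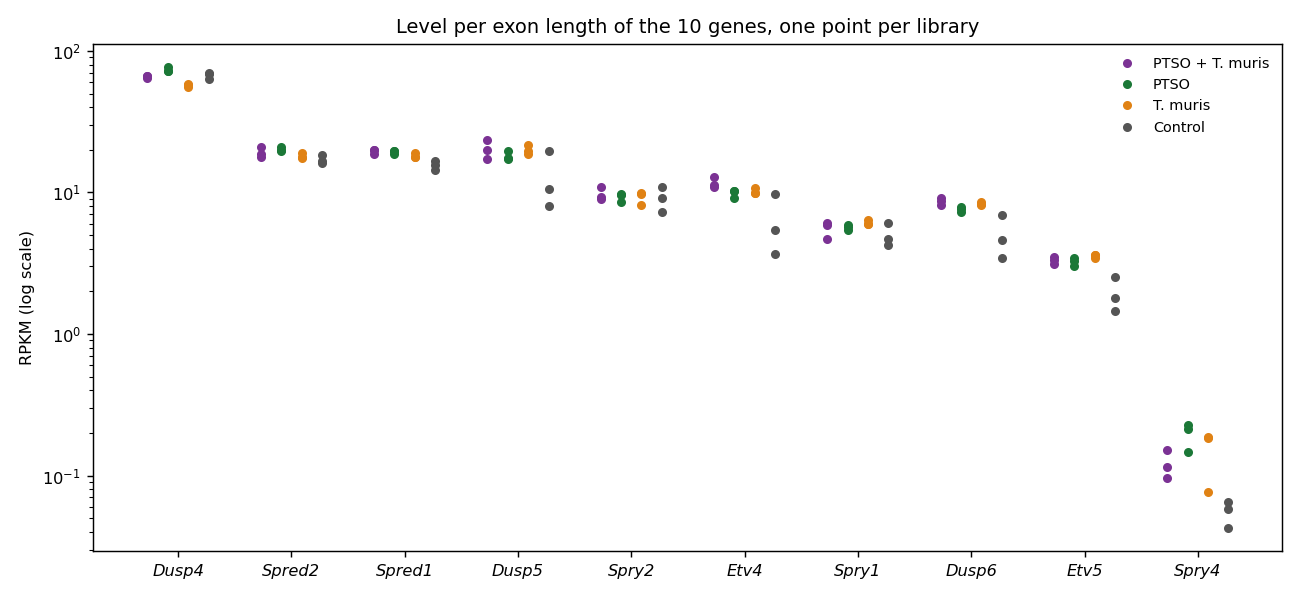
Level of each gene per exon length (RPKM, log axis), with 1 point per library and the genes in the order of their Control means. Dusp4 lies highest and Spry4 lowest in all 4 groups, and the 3 Control points of Etv4, Dusp5 and Dusp6 are spread more widely than those of the treated groups.

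The first question of the design was what PTSO or the antigens did alone and together against Control. Etv5 and Spred1 were higher than Control after PTSO, after antigens and after both. Dusp6 was called higher with antigens alone and with both, and Spry4 and Spred2 with PTSO alone. Dusp6 in PTSO (log2 fold change 0.60, edgeR adjusted p = 0.0668) and Spry4 in T. muris (1.46, adjusted p = 0.0778) were above Control but not called. PTSO and antigens were not compared with each other. Dusp4 alone of the 10 was called lower, with antigens alone. A gene was called at a Benjamini-Hochberg adjusted p under 0.05 in edgeR's quasi-likelihood test over all 15267 genes. In PTSO + T. muris against Control, 3 of the 10 genes were called higher and 0 lower, where 16.7% of all genes were called, 7.88% higher and 8.85% lower. In PTSO against Control, 4 were called higher and 0 lower, where 5.25% of all genes were called, 2.36% higher and 2.9% lower. In T. muris against Control, 3 were called higher and 1 lower, where 6.35% of all genes were called, 2.91% higher and 3.43% lower. With control libraries 2 and 3 left out, which leaves 1 Control library, 0 of the 10 genes were called in each of these 3 comparisons, where 1.23% of all genes were called in PTSO + T. muris, 0.463% in PTSO and 0.0481% in T. muris. With control library 1 left out 7 were called in PTSO + T. muris, where 30.5% of all genes were called, 8 in PTSO, where 23.1% were, and 7 in T. muris, where 25.7% were.

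The median log2 fold change over the 10 genes was 0.49 in PTSO + T. muris against Control, 0.40 in PTSO against Control and 0.46 in T. muris against Control, and that of all genes was between 0.0008 and 0.0016. These comparisons share the Control libraries. Of the 10 genes 5 had all 3 PTSO + T. muris libraries above all 3 Control libraries, as did 14.5% of all genes. In PTSO this held for 6 of the 10 genes and 10.4% of all genes (and 0 of the 10 but 10.2% of all genes lay below), and in T. muris for 5 of the 10 genes and 11.3% of all genes. Etv5, Dusp6, Spry4 and Spred1 lay above Control without overlap in all 3 treated groups, an arrangement found in 528 genes, or 3.46% of those tested. In T. muris, 1 of the 10, Dusp4, had all libraries below Control, as did 11.7% of all genes.

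**Figure D2:**
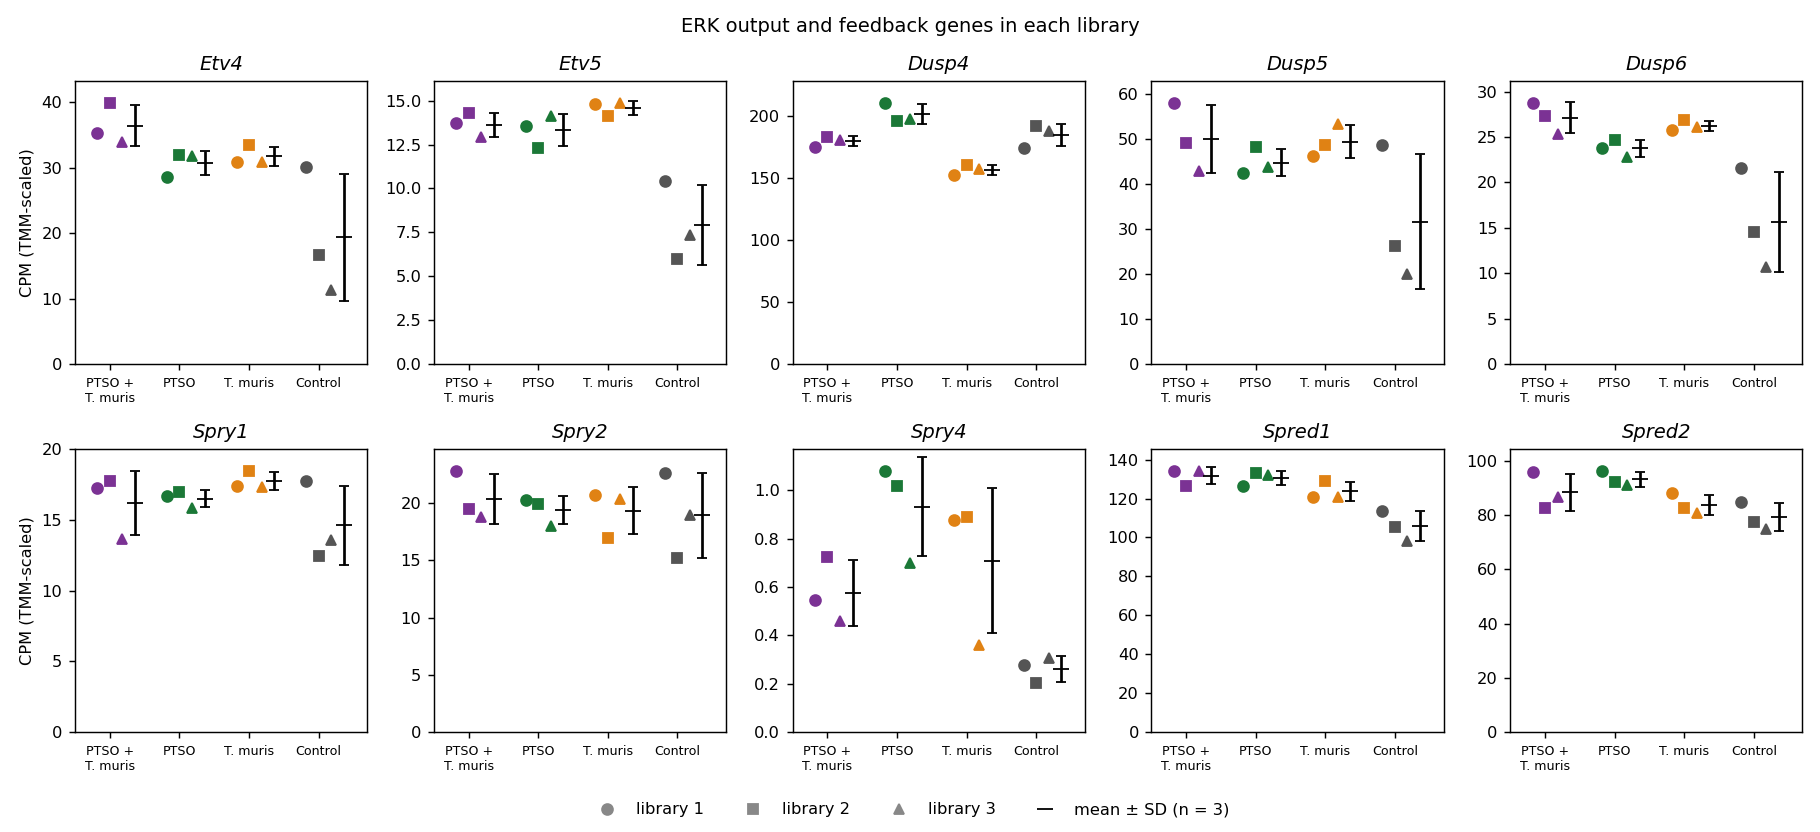
TMM-scaled CPM of each gene in each library, by group, with library numbers as symbols and mean ± SD (n = 3) as black marks; each axis starts at 0. Etv5, Dusp6, Spry4 and Spred1 have every treated library above every Control library, and Dusp4 is lowest in the 3 T. muris libraries and highest in the 3 PTSO libraries.

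The second question was whether a second agent added to the first. In PTSO + T. muris against T. muris, 0 of the 10 genes were called, where 94 genes or 0.616% of those tested were called, and 1 of the 10, Dusp4, had an unadjusted p under 0.05, as did 1357 genes. DESeq2 called 195 genes there, Dusp4 among them. In PTSO + T. muris against PTSO, 0 of the 10 genes and 0 of all genes were called by edgeR (0% of those tested). At an unadjusted p under 0.05 there were 932 genes, 1 of them Dusp4, and DESeq2 called 15 genes. The libraries of PTSO + T. muris lay above those of T. muris without overlap for Etv4 and Dusp4, an arrangement of 8.92% of all genes, and below them for 0 of the 10 and 9.74% of all genes. They lay above those of PTSO for Etv4 and Dusp6, as for 7.49% of all genes, and below them for Dusp4, as for 7.89%.

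The interaction was the change that PTSO made under antigens less the change it made without them. It gave 0 calls among the 10 genes and among all genes by edgeR (0% of those tested), 1181 genes at an unadjusted p under 0.05 and 4 genes by DESeq2. The 10 adjusted p-values were 0.609 to 0.962. Of the 10 estimates 8 were below 0, with a median of -0.39 against -0.0041 over all genes. Those with an unadjusted p under 0.05 were Etv5 (-0.84 ± 0.206, SE), Spred1 (-0.21 ± 0.0781), Dusp6 (-0.55 ± 0.247) and Spry4 (-2.14 ± 0.678). The Spry4 estimate was -2.18 without control library 1 and -2.06 without control libraries 2 and 3. The number of calls changed when control library 1 was left out. Without it, 5 of the 10 genes were called lower by edgeR, where 8.14% of all genes were called, with Etv4 at -0.93 (adjusted p = 0.000352), Etv5 at -1.08 (adjusted p = 0.000212), Dusp5 at -0.92 (adjusted p = 0.00495), Dusp6 at -0.85 (adjusted p = 0.00031) and Spred1 at -0.27 (adjusted p = 0.0150). Without control libraries 2 and 3 none was called, Etv5 was at -0.44 and Dusp6 at -0.08, and Etv4 changed sign to 0.17 and Dusp5 to 0.15.

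**Figure D3:**
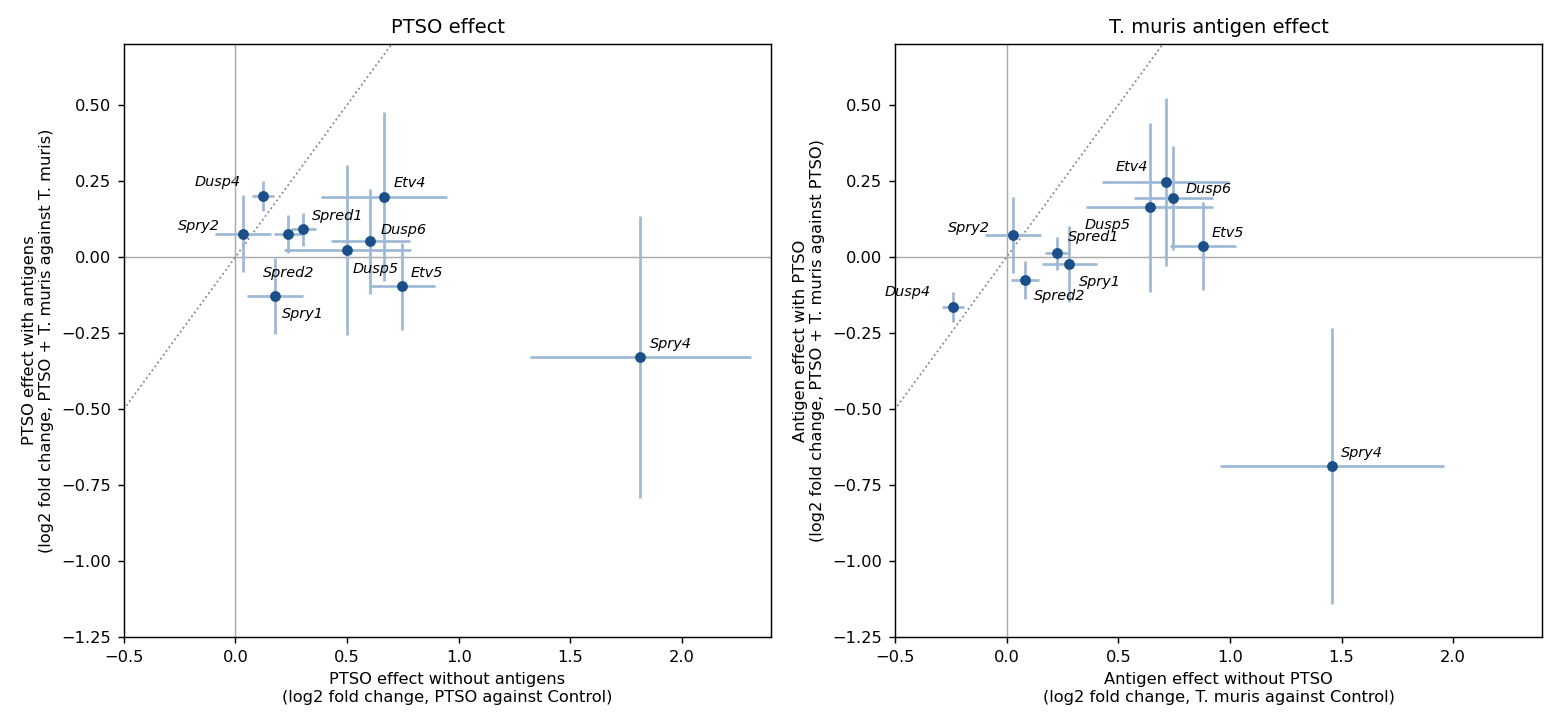
Log2 fold change ± SE of each gene for PTSO (left) and for T. muris antigens (right), without the other agent on the horizontal axis and with it on the vertical axis; the dotted line marks equal values. Most genes lie right of the line near 0 on the vertical axis, while Dusp4 lies close to it in both panels, above 0 for PTSO and below 0 for antigens.

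Etv5 (ENSMUSG00000013089, chromosome 16), a transcription factor of the PEA3 group, had 13.7, 14.3 and 12.9 CPM in PTSO + T. muris, 13.6, 12.3 and 14.1 CPM in PTSO, 14.8, 14.1 and 14.9 CPM in T. muris, and 10.4, 6.00 and 7.37 CPM in Control. All 9 treated libraries lay above all 3 Control libraries, and the PTSO + T. muris libraries overlapped those of PTSO and those of T. muris. The log2 fold change against Control was 0.78 ± 0.148 in PTSO + T. muris (SE, edgeR adjusted p = 0.00196), 0.75 ± 0.148 in PTSO (adjusted p = 0.00724) and 0.88 ± 0.148 in T. muris (adjusted p = 0.0104). Against a single agent the change with both was -0.10 ± 0.144 relative to T. muris and 0.04 ± 0.144 relative to PTSO. No single library, when left out, ended the call in PTSO + T. muris, but the call in PTSO was lost without control library 2 (adjusted p = 0.0568). In T. muris it was lost without control library 2 (adjusted p = 0.0785) or T. muris library 1 (adjusted p = 0.0725). The change without control libraries 2 and 3 was 0.39 in PTSO + T. muris, 0.35 in PTSO and 0.48 in T. muris, and the adjusted p-values were 0.335, 0.58 and 0.736 in that order of groups.

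Etv4 (ENSMUSG00000017724, chromosome 11), its paralog in the PEA3 group, had 35.3, 39.9 and 34.0 CPM in PTSO + T. muris, 28.6, 31.9 and 31.7 CPM in PTSO, 30.8, 33.5 and 30.9 CPM in T. muris, and 30.1, 16.7 and 11.3 CPM in Control. Control library 1 lay within the range of the treated libraries and the other Control libraries far below it. The PTSO + T. muris libraries lay above those of T. muris without overlap, as for 8.92% of all genes, and above those of PTSO, as for 7.49%. The log2 fold change against Control was 0.91 ± 0.284 in PTSO + T. muris, 0.67 ± 0.284 in PTSO and 0.71 ± 0.285 in T. muris, and none was called by edgeR (adjusted p = 0.0600, 0.206 and 0.162 in that order of groups). Without control library 1 these values were 1.38, 1.13 and 1.18, and all were called, with adjusted p-values of 8.42e-10, 6.94e-08 and 3.06e-08. They were 0.28, 0.03 and 0.08, and not called, without control libraries 2 and 3. With both agents the change was 0.20 ± 0.277 relative to T. muris and 0.25 ± 0.276 relative to PTSO, and neither was called (edgeR adjusted p = 0.905 and 0.904).

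Dusp4 (ENSMUSG00000031530, chromosome 8), a nuclear phosphatase of ERK that also acts on JNK, moved in opposite directions with the 2 agents. Its level was 175, 184 and 181 CPM in PTSO + T. muris, 211, 196 and 198 CPM in PTSO, 153, 160.3 and 157 CPM in T. muris, and 175, 192 and 188 CPM in Control. The PTSO libraries were the highest 3 and the T. muris libraries the lowest 3 of the 12, and PTSO + T. muris overlapped Control. PTSO lay above its counterpart without overlap both with and without antigens, and antigens lay below theirs both with and without PTSO. This arrangement was found in 9 genes, or 0.059% of those tested. It is the one that Dusp4 showed, so its share is a description and not a test. Arrangements with other directions were not counted.

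Averaged over both backgrounds, which sets 6 libraries against 6, the PTSO effect on Dusp4 was 0.16 ± 0.0345 on the log2 scale (edgeR adjusted p = 0.00738, a 1.12-fold rise). The T. muris effect was -0.20 ± 0.0345 (adjusted p = 0.00664, a fall to 0.87 of the level without antigens). Each of these calls was kept in all 20 alternatives of filter, scaling, test and libraries. The PTSO effect ranged there from 0.14 to 0.20, with an adjusted p of at most 0.0324. The T. muris effect ranged from -0.22 to -0.16, with an adjusted p of at most 0.0364. One of these alternatives left out control libraries 2 and 3. The interaction was 0.08 ± 0.069 (adjusted p = 0.769).

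In single comparisons the Dusp4 calls were less stable. T. muris against Control gave -0.24 ± 0.0489 (edgeR adjusted p = 0.0183), a call that was lost without control library 2 or 3 or without any of the 3 T. muris libraries (adjusted p = 0.0542 to 0.125). It was -0.16 (adjusted p = 0.91) with both control libraries 2 and 3 left out. PTSO against Control gave 0.12 ± 0.0486 (adjusted p = 0.132). PTSO + T. muris against T. muris gave 0.20 ± 0.049 and missed the threshold (adjusted p = 0.0754), which it passed without control library 1 (adjusted p = 0.00486) or without control library 3 (adjusted p = 0.0440). PTSO + T. muris against PTSO gave -0.16 ± 0.0487 (adjusted p = 0.674), and PTSO + T. muris against Control -0.04.

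Dusp6 (ENSMUSG00000019960, chromosome 10), the cytoplasmic phosphatase that is specific for ERK, had 28.8, 27.3 and 25.4 CPM in PTSO + T. muris, 23.8, 24.6 and 22.8 CPM in PTSO, 25.7, 26.8 and 26.1 CPM in T. muris, and 21.6, 14.6 and 10.7 CPM in Control. All treated libraries lay above all Control libraries, with control library 1 next below them. PTSO + T. muris lay above PTSO without overlap and overlapped T. muris. The log2 fold change against Control was 0.80 ± 0.177 in PTSO + T. muris (edgeR adjusted p = 0.0106), 0.60 ± 0.177 in PTSO (adjusted p = 0.0668) and 0.75 ± 0.177 in T. muris (adjusted p = 0.0335). The call in PTSO + T. muris was lost without control library 2 (adjusted p = 0.0632) or PTSO + T. muris library 1 (adjusted p = 0.0533). The call in T. muris was lost without control library 2 or 3, any T. muris library, PTSO library 1 or 2, or PTSO + T. muris library 2 (adjusted p = 0.0506 to 0.172).

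Without control library 1 the Dusp6 changes were 1.10, 0.91 and 1.05 in PTSO + T. muris, PTSO and T. muris, and all were called, that in PTSO with an adjusted p of 3e-07. They were 0.33, 0.14 and 0.28, and not called, without control libraries 2 and 3. The average T. muris effect was 0.47 ± 0.124 (edgeR adjusted p = 0.0487) and was kept only when control library 1 or control library 3 was the one left out. Without any of the other 10 libraries the adjusted p was 0.068 to 0.145. The effects averaged were 0.75 ± 0.177 without PTSO and 0.19 ± 0.172 with PTSO (adjusted p = 0.877 for the latter). The average PTSO effect was 0.33 ± 0.123 (adjusted p = 0.14), which was called without control library 1 (0.48, adjusted p = 8.59e-06).

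The promoters of Dusp6 and of Spred1 are shown because these genes were called and no stretch checked in their windows was found in an annotated transcript of the same gene. Short overlaps could be missed, and transcripts of other genes were not checked. The sequences are the 250 bases before the RefSeq gene start in GRCm38.p6, plus strand, at chr10:99262981-99263230 for Dusp6 and chr2:117120821-117121070 for Spred1. Bases checked just after the start were found in an annotated transcript of Dusp6. Those of Spred1 were found in no annotated transcript of Spred1, so its start was not matched to that annotation. Capitals mark the match to the PEA3 motif AGGAAG, here read on the opposite strand.
Dusp6: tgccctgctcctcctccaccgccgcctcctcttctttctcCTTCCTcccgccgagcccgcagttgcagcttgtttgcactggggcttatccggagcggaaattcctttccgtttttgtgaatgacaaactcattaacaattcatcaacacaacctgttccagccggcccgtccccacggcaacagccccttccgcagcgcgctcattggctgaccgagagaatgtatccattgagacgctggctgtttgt
Spred1: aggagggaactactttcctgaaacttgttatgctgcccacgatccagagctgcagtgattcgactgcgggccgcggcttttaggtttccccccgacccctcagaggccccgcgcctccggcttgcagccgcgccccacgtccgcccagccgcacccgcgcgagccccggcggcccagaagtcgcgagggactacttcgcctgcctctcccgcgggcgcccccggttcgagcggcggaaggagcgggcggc

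The table of promoters held 7 of the 10 genes (Etv5, Dusp5, Dusp6, Spry1, Spry2, Spred1 and Spred2), and 5 motifs were searched on both strands of the 250 bases. The PEA3 motif AGGAAG was in 3 of these 7 (Dusp5, Dusp6, and Spred2 with 2 matches) and in 29.5% of 32851 promoters. In Dusp6 it began 210 bases before the start. The ETS motif CCGGAA (12% of all promoters), the AP-1 motif TGANTCA (6.75%) and the cAMP response element TGACGTCA (1.55%) were in 0 of the 7. No motif in this search holds another of them whole. A CArG box, the motif bound by serum response factor, was in Dusp5 alone of the 7 and in 1.47% of all promoters. A match is a run of letters and was not tested as a site.

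Dusp5 (ENSMUSG00000034765, chromosome 19) encodes a nuclear phosphatase of ERK. The CArG boxes in its promoter are shown because there were 2 of them end to end, in the 20 bases from 82 to 63 before the RefSeq start (chr19:53529063-53529082, plus strand, GRCm38.p6), with both boxes in capitals. Unlike for Dusp6 and Spred1, a stretch of the window before the Dusp5 start was found in an annotated transcript of the gene. Whether the boxes lie in that stretch was not checked.
Dusp5: CCATATTTGGCCTTATATGG

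Dusp5 had 58.0, 49.1 and 42.9 CPM in PTSO + T. muris, 42.3, 48.2 and 43.6 CPM in PTSO, 46.2, 48.6 and 53.3 CPM in T. muris, and 48.6, 26.3 and 20.0 CPM in Control. Control library 1 was among the treated libraries, and control libraries 2 and 3 were below all of them. The log2 fold changes against Control lay between 0.50 and 0.66 with an SE of 0.284 or 0.285, and none was called by edgeR. Without control library 1, PTSO + T. muris against Control gave 1.12 and was called (adjusted p = 1.68e-05), as were PTSO (0.95, adjusted p = 0.000121) and T. muris (1.09, adjusted p = 3e-05). Without control libraries 2 and 3 the values were 0.05 in PTSO + T. muris, -0.12 in PTSO and 0.02 in T. muris. An antisense gene shares 22.1% of the exon bases of Dusp5, and the strand setting of the counting is not given in the sources used here, so reads of the antisense gene could be included.

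The spread of Etv4, Dusp5 and Dusp6 within Control was itself large beside that of other genes. The highest Control library was 2.66 times the lowest for Etv4, 2.43 times for Dusp5, 2.01 times for Dusp6 and 1.74 times for Etv5, against a median of 1.15 over 9580 genes with a mean of at least 10 CPM. Ratios at or above these were found in 0.198%, 0.271%, 0.543% and 1.34% of those genes, in the same order. Dusp4 (1.10), Spred1 (1.16) and Spred2 (1.13) were near the median. In the treated groups the ratio for Etv4, Etv5 and Dusp6 was at most 1.18, and for Dusp5 it reached 1.35 in PTSO + T. muris.

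**Figure D4:**
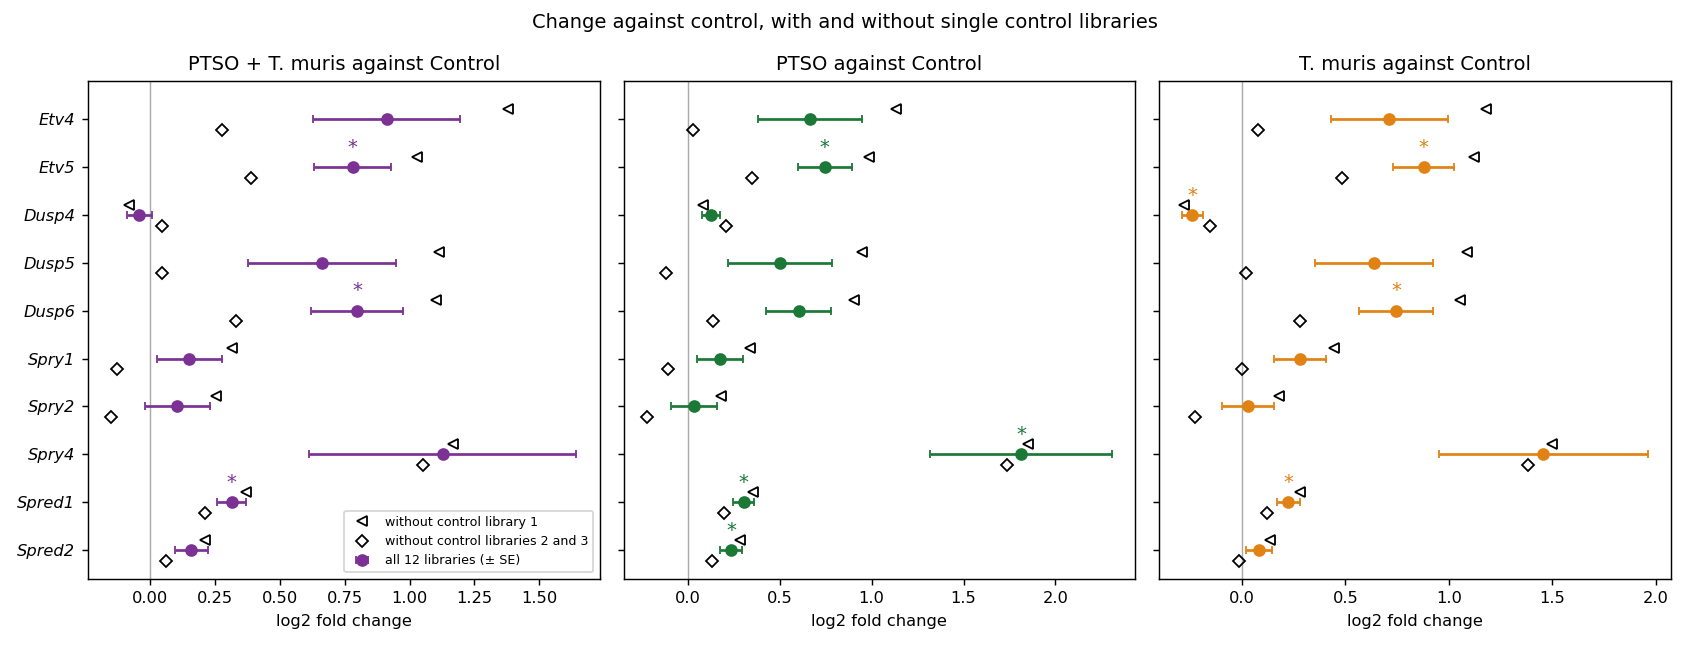
Log2 fold change ± SE of each gene against Control in all 12 libraries (filled), without control library 1 (triangles) and without control libraries 2 and 3 (diamonds), for PTSO + T. muris, PTSO and T. muris; stars mark calls at an adjusted p under 0.05, and the axes differ between panels. For Etv4, Dusp5 and Dusp6 the triangles lie between 0.91 and 1.38 and the diamonds between -0.12 and 0.33, while Spry4 and Spred1 move less.

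Sprouty genes encode membrane-associated inhibitors of receptor tyrosine kinase signalling. Spry1 (ENSMUSG00000037211, chromosome 3) had 17.2, 17.7 and 13.6 CPM in PTSO + T. muris, 16.7, 17.0 and 15.8 CPM in PTSO, 17.4, 18.5 and 17.3 CPM in T. muris, and 17.8, 12.5 and 13.6 CPM in Control. Every treated group overlapped Control, in which library 1 was as high as the treated libraries. The largest of its changes against Control was 0.28 ± 0.125 in T. muris (edgeR adjusted p = 0.163), which was called without control library 1 (0.45, adjusted p = 0.00462). With control libraries 2 and 3 left out, its values were -0.13 in PTSO + T. muris, -0.11 in PTSO and -0.00075 in T. muris, and none was called. An antisense gene shares 24.4% of the exon bases of Spry1, with the same limit as for Dusp5.

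Spry2 (ENSMUSG00000022114, chromosome 14), a further member of the family, had 22.8, 19.5 and 18.8 CPM in PTSO + T. muris, 20.2, 19.9 and 17.97 CPM in PTSO, 20.7, 17.0 and 20.4 CPM in T. muris, and 22.7, 15.2 and 19.0 CPM in Control. The 4 groups overlapped, and Control spanned nearly the whole range. Its log2 fold changes in the 5 direct comparisons were 0.03 to 0.11 with an SE of 0.125 or 0.126. Those against Control turned negative with control libraries 2 and 3 left out, at -0.15 in PTSO + T. muris, -0.22 in PTSO and -0.23 in T. muris, and none was called.

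Spry4 (ENSMUSG00000024427, chromosome 18) was counted in few reads, with 14, 19 and 9 counts in PTSO + T. muris, 31, 31 and 16 in PTSO, 30, 23 and 6 in T. muris, and 7, 5 and 8 in Control. In CPM these were 0.546, 0.725 and 0.457 in PTSO + T. muris, 1.08, 1.02 and 0.70 in PTSO, 0.876, 0.889 and 0.361 in T. muris, and 0.278, 0.203 and 0.307 in Control. All treated libraries lay above all Control libraries, by little for T. muris library 3, which had the lowest total count. PTSO against Control gave 1.81 ± 0.494 (a 3.52-fold rise, edgeR adjusted p = 0.0378). This call was lost without control library 2 or 3, any PTSO library, T. muris library 1 or 2, or PTSO + T. muris library 2 (adjusted p = 0.0535 to 0.162). T. muris against Control gave 1.46 ± 0.503 (adjusted p = 0.0778) and PTSO + T. muris against Control 1.13 ± 0.515 (adjusted p = 0.14). With both agents the change was -0.33 ± 0.463 relative to T. muris and -0.69 ± 0.454 relative to PTSO. Spry4 changed little with the Control libraries used: PTSO against Control was 1.85 without control library 1 and 1.74 without control libraries 2 and 3, where it was not called.

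SPRED1, which carries neurofibromin to the membrane where RAS lies, is encoded by Spred1 (ENSMUSG00000027351, chromosome 2). Spred1 had 134, 127 and 134 CPM in PTSO + T. muris, 127, 133 and 132 CPM in PTSO, 121, 129 and 121 CPM in T. muris, and 114, 106 and 98.2 CPM in Control. Every treated library was above every Control library, and PTSO overlapped PTSO + T. muris and T. muris. The log2 fold change against Control was 0.32 ± 0.0554 in PTSO + T. muris (edgeR adjusted p = 0.00115, 1.24-fold), 0.30 ± 0.0552 in PTSO (adjusted p = 0.00401, 1.23-fold) and 0.23 ± 0.0554 in T. muris (adjusted p = 0.0262, 1.17-fold). No single library ended the call in PTSO + T. muris or in PTSO. The call in T. muris was lost without control library 2 or 3 or any T. muris library (adjusted p = 0.0674 to 0.146). The values were 0.21, 0.20 and 0.12 in the same order of groups, and not called, without control libraries 2 and 3.

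The average PTSO effect on Spred1 was 0.20 ± 0.0391 (edgeR adjusted p = 0.00439) and was kept in all 20 alternatives, at 0.15 to 0.22 and an adjusted p of at most 0.0289. The effects averaged for Spred1 were 0.30 ± 0.0552 without antigens and 0.09 ± 0.0552 with them. The latter was not called (adjusted p = 0.681), and its groups overlapped. Among the 10 genes 3 were called higher in the average PTSO effect, namely Dusp4, Spred1 and Spred2, where 6.51% of all genes were called, 2.8% higher and 3.71% lower. The average T. muris effect on Spred1 was 0.12 ± 0.0391 (adjusted p = 0.0741), and without control library 1 it was called (0.15, adjusted p = 0.00197). In the average T. muris effect, 2 of the 10 genes were called higher, Etv5 and Dusp6, and 1 lower, Dusp4, where 5.19% of all genes were called, 2.12% higher and 3.07% lower. The Etv5 value was 0.46 ± 0.103 (adjusted p = 0.0222), a call that was lost without control library 2, any T. muris library, PTSO library 1, or PTSO + T. muris library 1 or 2 (adjusted p = 0.0502 to 0.0737). It averages 0.88 ± 0.148 without PTSO and 0.04 ± 0.144 with PTSO.

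Spred2 (ENSMUSG00000045671, chromosome 11), its paralog, had 96.1, 82.8 and 86.6 CPM in PTSO + T. muris, 96.4, 92.2 and 91.1 CPM in PTSO, 88.1, 82.6 and 80.8 CPM in T. muris, and 85.0, 77.6 and 75.1 CPM in Control. Only the PTSO libraries lay above Control without overlap. PTSO against Control gave 0.24 ± 0.062 (edgeR adjusted p = 0.0327), a call that was lost without control library 2 or 3, any PTSO library, or T. muris library 2 or 3 (adjusted p = 0.0524 to 0.155). PTSO + T. muris against Control gave 0.16 ± 0.0623 (adjusted p = 0.082), which was called without control library 1 (0.21, adjusted p = 0.00646), and T. muris against Control gave 0.08 ± 0.0624 (adjusted p = 0.43). Leaving out control libraries 2 and 3 gave 0.06 in PTSO + T. muris, 0.13 in PTSO and -0.02 in T. muris, none of them called. The average PTSO effect was 0.16 ± 0.0439 (adjusted p = 0.0380) and was lost without control library 2 or 3, any PTSO library, T. muris library 2 or 3, or PTSO + T. muris library 1 or 3 (adjusted p = 0.0527 to 0.143). It averages 0.24 ± 0.062 without antigens and 0.08 ± 0.0623 with them (adjusted p = 0.788 for the latter).

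Other genes of the pathway were examined as 5 lists, whose counts stand beside these shares of all genes. In PTSO + T. muris against Control 7.88% were called higher and 8.85% lower. The shares were 2.36% and 2.9% in PTSO against Control, and 2.91% and 3.43% in T. muris against Control. The cascade from receptor to ERK (Egfr to Mapk3) had 20 of 20 genes tested, with 0 called in PTSO + T. muris against Control, 0 in PTSO against Control, and 1 lower in T. muris against Control. Its medians were 0.01, 0.03 and -0.0007, near those of all genes. The 1 gene was Mapk3, which encodes ERK1, at -0.28 ± 0.0786 (edgeR adjusted p = 0.0445). That call was lost without control library 2 or 3, any T. muris library, PTSO library 3, or PTSO + T. muris library 2 or 3 (adjusted p = 0.0524 to 0.211), and control libraries 2 and 3 left out together gave -0.06 (adjusted p = 0.998). Of the other inhibitors of the pathway 15 of 17 were tested, Spry3 with 34 counts in all and Dusp9 with 1 falling short, and 1 was called higher in PTSO + T. muris against Control, the RAS GTPase-activating protein gene Rasa3 (0.18 ± 0.0512). It was lost without control library 2 or 3 or PTSO + T. muris library 1 or 2 (adjusted p = 0.0518 to 0.175), and with both of those control libraries left out the value was 0.15 (adjusted p = 0.394). Of the 3 phosphatases with a preference for p38 and JNK, Dusp16 was called higher in PTSO against Control (0.19 ± 0.049, adjusted p = 0.0261), and not without control library 2 or 3 or any PTSO library (adjusted p = 0.056 to 0.118) or with both of those control libraries left out (0.16, adjusted p = 0.521).

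Further transcriptional outputs of ERK had 11 of 12 genes tested, Etv1 having 0 counts. In PTSO against Control 1 was called higher, where 2.36% of all genes were, with a list median of 0.29. In T. muris against Control 0 were called higher, where 2.91% of all genes were, with a list median of 0.23. In PTSO + T. muris against Control 5 were called higher and 0 lower, where 7.88% and 8.85% of all genes were. The list median there was 0.33 against 0.0008 for all genes. The 4 with the smallest p-values are led by Lif, a cytokine of the interleukin-6 family, at 0.54 ± 0.0767 (edgeR adjusted p = 0.000272), followed by Fosl1, an AP-1 subunit, at 1.19 ± 0.297 (adjusted p = 0.0289). Hmga2, a chromatin architectural protein, gave 0.74 ± 0.204 (adjusted p = 0.0421), and Ier3, an immediate early gene, 0.31 ± 0.089 (adjusted p = 0.0318). Lif kept its call in all 21 alternatives. Fosl1 lost it without control library 2 or 3 or any PTSO + T. muris library (adjusted p = 0.0502 to 0.121), Ier3 without those or T. muris library 1 (adjusted p = 0.0503 to 0.134), and Hmga2 without any library other than control library 1 (adjusted p = 0.0631 to 0.157). With control libraries 2 and 3 both left out, Fosl1 was at 0.55 (adjusted p = 0.0519), Hmga2 at 0.26 (adjusted p = 0.0631) and Ier3 at 0.06 (adjusted p = 0.851).

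Lif had 36.7, 34.8 and 34.5 CPM in PTSO + T. muris, 33.5, 35.2 and 33.8 CPM in PTSO, 28.6, 27.6 and 28.7 CPM in T. muris, and 26.5, 23.8 and 22.8 CPM in Control. PTSO lay above Control without overlap, as for 10.4% of all genes, and PTSO + T. muris above T. muris, as for 8.92%. In the average PTSO effect 2 of the 11 tested genes of this list were called higher and 1 lower. Of all genes 2.8% and 3.71% were. That effect on Lif was 0.40 ± 0.054 (edgeR adjusted p = 0.00013). Ccnd1, which encodes cyclin D1, moved the other way, with an average PTSO effect of -0.18 ± 0.0327 (adjusted p = 0.00243) that was kept in all 20 alternatives. It had 441, 394 and 417 CPM in PTSO + T. muris, 416, 401 and 414 CPM in PTSO, 472, 479.8 and 488 CPM in T. muris, and 475, 448 and 445 CPM in Control. PTSO lay below Control without overlap, as for 10.2% of all genes, and PTSO + T. muris below T. muris, as for 9.74%. Ccnd1 was also, in PTSO + T. muris against T. muris, the 1 gene of the 5 lists to be called, where 0.616% of all genes were. Its value there was -0.20 ± 0.0463 (adjusted p = 0.0490), lost without any library other than control libraries 1 and 3 (adjusted p = 0.0502 to 0.423). Egr1, an immediate early transcription factor, had an average PTSO effect of 0.26 ± 0.0647 (adjusted p = 0.0186), lost without PTSO library 1 or 2, T. muris library 2 or PTSO + T. muris library 2 (adjusted p = 0.0522 to 0.0734).

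Of the ETS factors and repressors downstream of ERK, 10 of 10 were tested. In PTSO + T. muris against Control 2 were called lower and 0 higher, where 8.85% of all genes were called lower. In T. muris against Control 1 was called lower, where 3.43% of all genes were, and in PTSO against Control 0 were called. Cic, the repressor that ERK signalling relieves at Etv4 and Etv5, had 171, 193 and 174 CPM in PTSO + T. muris, 207, 189 and 193 CPM in PTSO, 168, 171 and 181 CPM in T. muris, and 199, 216 and 206 CPM in Control. Both groups with antigens lay below Control without overlap, as did 11.7% of all genes in T. muris and 14.9% in PTSO + T. muris. T. muris against Control gave -0.26 ± 0.0546 (edgeR adjusted p = 0.0192), lost without control library 2 or 3 or T. muris library 1 or 2 (adjusted p = 0.0514 to 0.128). PTSO + T. muris against Control gave -0.21 ± 0.0545 (adjusted p = 0.0143), lost without control library 2 or PTSO + T. muris library 1 or 3 (adjusted p = 0.0553 to 0.0853). Ets2, an ETS factor that ERK phosphorylates, gave -0.24 ± 0.0482 in PTSO + T. muris against Control (adjusted p = 0.00323), which no single library ended. Without control libraries 2 and 3 together the calls of both genes against Control were lost, with Cic at -0.20 in T. muris (adjusted p = 0.736) and -0.15 in PTSO + T. muris (adjusted p = 0.434), and Ets2 at -0.13 in PTSO + T. muris (adjusted p = 0.34). In the average T. muris effect the same 2 were called lower, where 3.07% of all genes were. Cic, at -0.20 ± 0.0386, lost that call without control library 2, T. muris library 1 or PTSO + T. muris library 1 (adjusted p = 0.0523 to 0.0557). Ets2, at -0.13 ± 0.0341, kept it only without control library 1 or PTSO + T. muris library 3, and had an adjusted p of 0.0521 to 0.0995 without any other library.

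The genes whose levels over the 12 libraries were most like those of Dusp6 and Etv4 were found among 11574 genes by the root mean square (RMS) difference of log2 CPM, each gene centred on its own mean. For Dusp6, whose own RMS about its mean was 0.40, they were Hmga2 (0.09), the metalloprotease gene Adam12 (0.10) and Igfbp3, an insulin-like growth factor binding protein (0.10), and the nearest of the other 9 genes was Dusp5 (0.11). For Etv4, with an RMS of 0.49, they were the transporter gene Slc4a11 (0.11), the granulocyte colony-stimulating factor gene Csf3 (0.12) and Hmga2 (0.14), and the nearest of the 9 was Dusp6 (0.13). Hmga2 had 151, 141 and 130.3 CPM in PTSO + T. muris, 121, 127 and 134 CPM in PTSO, 132, 129 and 122 CPM in T. muris, and 118, 73.9 and 61.3 CPM in Control. It had the low values of control libraries 2 and 3 in common with Dusp6 and Etv4.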

How the data were processed

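The authors deposited 1 table of raw read counts per gene, with a column for each of the 12 libraries. HISAT, DESeq2 and the mm39 build appear in the submitters' processing notes. The sources used here give neither the program that counted nor the annotation and strand setting. Genes were filtered with filterByExpr of edgeR 4.0.16 (15267 kept, with 99.9% of counts), scaled by TMM and fitted in 1 model of 4 groups, with 8 residual degrees of freedom. Comparisons used edgeR's robust quasi-likelihood F-test with Benjamini-Hochberg adjustment over all genes tested. The SE was approximated from the log2 fold change and the F statistic. An average effect is the mean of an agent's effects with and without the other. RPKM used merged exon lengths of GENCODE M21 (GRCm38), so no gene coordinates are given. Alternatives were DESeq2 1.42.0, other scalings and filters, a replicate block and libraries left out. The tests were first run on simulated data with known changes. The work ran in R 4.3.3 and Python 3.11.15, with figures by matplotlib 3.10.9. The genes and lists were chosen with earlier results of these data known. All 10 genes are described, list genes are named where called (at most 4 a list and comparison), and for Dusp6 and Etv4 the 3 most similar genes are named.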

Additional observations from a re-analysis of the deposited data

How the results depend on the processing

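Leaving out a library in turn moved the number of the 10 genes called between 1 and 8 in PTSO against Control, 0 and 7 in T. muris against Control, 2 and 7 in PTSO + T. muris against Control, 0 and 1 in PTSO + T. muris against T. muris, 0 and 0 in PTSO + T. muris against PTSO, 0 and 5 in the interaction, 2 and 7 in the average PTSO effect and 1 and 7 in the average T. muris effect. The highest counts were without control library 1. Of all genes these settings called 1.05% to 23.1% in PTSO against Control, 0.0127% to 25.7% in T. muris against Control, 6.32% to 30.5% in PTSO + T. muris against Control, 0.147% to 2.36% in PTSO + T. muris against T. muris, 0% to 0.229% in PTSO + T. muris against PTSO, 0% to 8.14% in the interaction, 3.2% to 20.2% in the average PTSO effect and 0.351% to 23.7% in the average T. muris effect. Leaving out control libraries 2 and 3 together leaves 1 Control library, assumed to vary like the other groups. The comparisons with Control in that setting were described above. There Dusp4 was at 0.20 in PTSO + T. muris against T. muris and at -0.16 in the average T. muris effect. In the average PTSO effect Dusp4 was at 0.20 and Spred1 at 0.15. With only the libraries compared, 0 were called in PTSO against Control (0.314% of all genes), 0 in T. muris against Control (0.00689%) and 1 in PTSO + T. muris against T. muris (3.31%). With no filter the counts were 1 in PTSO + T. muris against T. muris (0.852% of all genes), 1 in the interaction (Etv5; 0.154%) and 5 in the average PTSO effect (5.6%). With DESeq2 they were 1 in PTSO + T. muris against T. muris (1.28%) and 5 in the average PTSO effect (9.67%), and without robust dispersion 5 were called in PTSO + T. muris against Control (16.6%). The cause was not tested. Signs turned for Spred1 in PTSO + T. muris against PTSO without PTSO library 1 (-0.0058) or PTSO + T. muris library 1 (-0.0016), for Etv5 there without PTSO library 2 (-0.016), with highest values of 0.044 for Spred1 and 0.081 for Etv5 over the libraries left out. With controls 2 and 3 left out they turned for Spry1 in T. muris against Control (-0.00075) and for Etv4 (0.17) and Dusp4 (-0.0047) in the interaction. They also turned there for values that were not called with or without them: Spry2 in the 3 comparisons with Control and both average effects (-0.23 to -0.07), Spry1 in PTSO + T. muris and PTSO against Control (-0.13 and -0.11) and both average effects (-0.12 and -0.01), Dusp5 in PTSO against Control (-0.12), the average PTSO effect (-0.05) and the interaction (0.15), Dusp4 in PTSO + T. muris against Control (0.05), and Spred2 in T. muris against Control (-0.02) and the average T. muris effect (-0.04). Of the other values for single genes 1220 kept their direction and side of the threshold, 198 lost a call and 36 gained one. Deviations from the group means correlated at -0.058 to 0.098 in 18 pairs of libraries with the same replicate number. In 36 pairs with different numbers they correlated at -0.085 to 0.059. Of 12 libraries 8 correlated best with one of their own number. With replicate number as a block, 5 genes were called in PTSO against Control, Dusp6 being added (adjusted p = 0.0328), and 4 in PTSO + T. muris against Control, Spred2 being added (adjusted p = 0.0375), and the counts of the other comparisons did not change (shares of all genes 5.92% and 17.5% in these 2). Mapk3 in T. muris against Control lost its call with the block (adjusted p = 0.0531). Low counts limit Spry4.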
